A study of Mus musculus with 12 samples.

Results

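The genes described here are 9 markers of B cell identity other than immunoglobulins, Ms4a1, Cd79a, Cd79b, Pax5, Cd22, Cr2, Fcer2a, Blk and Ebf1, taken by symbol from the 40840 genes listed for each library. All 9 were listed, and all 9 passed the filter on low values, which left 11026 protein-coding genes. Total RNA was sequenced from the liver immune cell fraction of 12 male mice in 4 groups of 3, namely WT-NCD, WT-HFD, Casp11KO-NCD and Casp11KO-HFD. WT mice were C57BL/6 by their labels (C57BL/6J in the methods), and Casp11KO mice were of the strain B6.129S4(D2)-Casp4tm1Yuan/J, which lacks functional caspase-11. From an age of 8 to 10 weeks the mice were fed for 12 weeks with normal chow (NCD) or with a high-fat diet containing added cholesterol (HFD). Whether the WT mice were littermates of the Casp11KO mice is not given in the sources used here. The cells were enriched on a Percoll gradient and were not sorted before RNA-seq, so the RNA comes from a mixture of liver cells.

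B cells recognise antigen through a surface immunoglobulin that signals through a pair of attached chains, CD79A and CD79B. Coreceptors raise or lower this signal, kinases of the Src family pass it on, and the transcription factors EBF1 and PAX5 establish and hold the B cell programme. Plasma cells, the antibody-secreting descendants of B cells, switch off PAX5 and most of these surface proteins. The liver holds lymphocytes beside its resident macrophages, the Kupffer cells.

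Levels are given as rescaled TPM, in which the protein-coding genes of each library sum to 1000000 and values under a common floor of 6.92 are raised to it. No read counts were given, so the depth behind each value is unknown. WT-NCD replicate 3 stood apart, with 39677 genes above the deposited floor against 12940 to 18775 in the other 11 libraries, and with correlations of log2 values of -0.145 to -0.0362 with the other libraries against 0.862 to 0.982 among those 11. Results are given without it, apart from the common floor, which is the rescaled floor of that library. For the members, the values with all 12 libraries follow where they change a call or a direction. For the gene lists they follow where they change a call and, for some lists, where they change directions. Casp4, the gene disrupted in Casp11KO mice, was at 28.4 to 44.5 in the other 5 WT libraries, at 61.4 in WT-NCD replicate 3 and at 11.2 to 20.3 in 4 Casp11KO libraries. In the libraries labelled Casp11KO-NCD replicate 3 (35.4) and Casp11KO-HFD replicate 2 (36.3) it lay within the WT range. The column name inside the file of the latter also differs in form from the rest, so the genotype of this pair rests on the sample labels. The values cover the whole Casp4 gene and not only its disrupted part. The labels call the cells hepatic macrophages, while the Kupffer cell markers Clec4f, Vsig4 and Cd5l were at 10.7 to 28.2 in the 5 NCD libraries without WT-NCD replicate 3 and at 138 to 747 in the 6 HFD libraries. Of the other genes of that marker list, Timd4, C1qa, C1qb, C1qc, Folr2 and Cd163 were also higher in every HFD library than in these NCD libraries. Csf1r, Adgre1 and Marco overlapped between the diets. Csf1r was at 75.2 to 561 in the same NCD libraries and 179 to 433 in the HFD libraries, and Adgre1 at 27.6 to 112 and 104 to 212. The share of macrophage RNA was not tested.

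RefSeq promoter windows of GRCm38.p6, each 300 bases long and spanning an annotated start, were found for 6 of the 9 genes (Cd79a, Cd22, Cr2, Fcer2a, Pax5 and Ebf1), with 9 windows in all. The EBF core CCCNNGGG, the octamer ATGCAAAT, the E box CAGGTG and the Ets core GAGGAA, letters known from binding sites of B cell factors, were searched on both strands. The windows of Cd79a and Cd22 are shown because they hold the letters of 2 different motifs each and belong to genes whose HFD values all lay below their NCD values. The Cd79a window lies on the plus strand at chr7:24897247-24897546 and the Cd22 window on the minus strand at chr7:30878979-30879278. Capitals mark the E box and the reverse complement of the Ets core in Cd79a, and the reverse complement of the E box and the EBF core in Cd22.
Cd79a: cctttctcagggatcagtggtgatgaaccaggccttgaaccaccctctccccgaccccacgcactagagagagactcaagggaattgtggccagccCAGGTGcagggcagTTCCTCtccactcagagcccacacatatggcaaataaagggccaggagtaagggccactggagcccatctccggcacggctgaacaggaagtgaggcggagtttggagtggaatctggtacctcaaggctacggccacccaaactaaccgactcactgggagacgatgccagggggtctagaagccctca
Cd22: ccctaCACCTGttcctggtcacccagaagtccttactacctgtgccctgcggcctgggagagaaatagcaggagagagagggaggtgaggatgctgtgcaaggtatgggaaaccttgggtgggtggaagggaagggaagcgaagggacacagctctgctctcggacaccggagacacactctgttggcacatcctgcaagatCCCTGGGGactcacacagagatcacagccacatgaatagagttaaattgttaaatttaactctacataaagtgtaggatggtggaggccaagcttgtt
The E box letters were in a window of 4 of these 6 genes (Cd79a, Cd22, Cr2 and Fcer2a) and in 4 of their 9 windows, against 20.2% of all 32851 promoter windows. The Ets core was in windows of Cd79a and Ebf1 against 28.3% of all windows, the EBF core was in that of Cd22 against 13.7%, and the octamer was in none of the 9 against 1.74%. No motif overlapped another in the windows shown. A match describes letters only and is not evidence of a bound site.

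The members were selected on their values in the diet comparisons of these libraries, so their levels on the 2 diets are a description with no test. Throughout, fewer B cells and less RNA per B cell cannot be told apart in bulk RNA. In the 11 libraries, every member but Ebf1 had all its HFD values below all its NCD values, in WT mice, in Casp11KO mice and over both genotypes together. This pattern held for 8 of 9 members in each case, while among all genes tested it held for 21.9% in WT, 15.5% in Casp11KO and 4.69% over both. Nothing is read from this contrast about the members, in which 0.989% of all genes tested were called in WT and 3.6% in Casp11KO at an adjusted p under 0.05.

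The signalling chains of the B cell receptor were the members with the highest levels and, in WT mice, the widest difference between diets. Cd79a (chr7:24897497-24901858) was at 1522 and 1394 in WT-NCD, 321, 259 and 392 in WT-HFD, 1526, 693 and 1114 in Casp11KO-NCD, and 276, 218 and 389 in Casp11KO-HFD. The lowest NCD value, in Casp11KO-NCD replicate 2, was still above the highest HFD value. The mean level in WT was 1458 ± 90.5 (SD, n = 2) on NCD and 324 ± 66.5 (SD, n = 3) on HFD, a ratio of NCD to HFD of 4.50, and in Casp11KO it was 1111 ± 416 (SD, n = 3) and 294 ± 87.2 (SD, n = 3), a ratio of 3.78.

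Cd79b (chr11:106311341-106314562), the partner chain, was at 1083 and 926 in WT-NCD, 226, 198 and 255 in WT-HFD, 1261, 454 and 820 in Casp11KO-NCD, and 179, 191 and 272 in Casp11KO-HFD. The groups of the 2 diets did not overlap, and the ratio of NCD to HFD means was 4.44 in WT and 3.95 in Casp11KO. Both chains kept nearly one proportion, since the level of Cd79a over that of Cd79b was between 1.14 and 1.54 in all 11 libraries, and their log2 levels had a Pearson r of 0.991 over these libraries. On the log2(rescaled TPM + 1) scale, the HFD minus NCD difference of Cd79a was -2.19 (SE 0.39) in WT and -1.88 (SE 0.35) in Casp11KO, and that of Cd79b was -2.15 (SE 0.40) and -1.88 (SE 0.36).

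The surface receptors covered a range of levels. Ms4a1 (chr19:11249679-11266149), which encodes CD20, was at 478 and 261 in WT-NCD, 186, 188 and 203 in WT-HFD, 467, 251 and 574 in Casp11KO-NCD, and 197, 118 and 193 in Casp11KO-HFD. The 3 WT-HFD values lay close together (192 ± 9.45, SD, n = 3), whereas the WT-NCD pair spread more widely (370 ± 153, SD, n = 2). The ratio of NCD to HFD means was 1.92 in WT and 2.54 in Casp11KO, with log2 differences of -0.88 (SE 0.40) and -1.30 (SE 0.36). The ratios of Ms4a1 were smaller than those of Cd79a in both genotypes, and its level relative to Cd79a was 0.188 to 0.515 on NCD and 0.497 to 0.728 on HFD, ranges that overlap.

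Cd22 (chr7:30865404-30880342) encodes an inhibitory coreceptor that binds sialic acid. It was at 362 and 278 in WT-NCD, 99.7, 71.0 and 129 in WT-HFD, 423, 198 and 556 in Casp11KO-NCD, and 75.2, 89.5 and 147 in Casp11KO-HFD. Its NCD and HFD values did not overlap, with ratios of 3.21 in WT and 3.77 in Casp11KO and log2 differences of -1.70 (SE 0.45) and -1.84 (SE 0.40).

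Fcer2a (chr8:3680280-3694174) encodes CD23, the low-affinity receptor for IgE. It was at 215 and 146 in WT-NCD, 62.3, 40.5 and 55.5 in WT-HFD, 224, 101 and 286 in Casp11KO-NCD, and 45.6, 34.8 and 72.5 in Casp11KO-HFD. The ratio of NCD to HFD means was 3.42 in WT and 3.99 in Casp11KO, the latter being the highest ratio of the 9 genes in that genotype, and the log2 differences were -1.75 (SE 0.44) and -1.91 (SE 0.40). Cr2 (chr1:195136811-195176880), a complement receptor, was at 51.9 and 38.8 in WT-NCD, 29.8, 28.4 and 25.2 in WT-HFD, 38.6, 41.5 and 100.4 in Casp11KO-NCD, and 20.5, 16.9 and 31.0 in Casp11KO-HFD. The gap between diets was narrow for Cr2, since its lowest NCD value (38.6) was little above its highest HFD value (31.0), and the mean ratio was 1.63 in WT and 2.64 in Casp11KO. The log2 differences of Cr2 were -0.67 (SE 0.42) in WT and -1.26 (SE 0.37) in Casp11KO.

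Blk (chr14:63372837-63417187), a Src family kinase of B cells, was at 129 and 99.1 in WT-NCD, 33.4, 23.9 and 46.8 in WT-HFD, 145, 55.5 and 213 in Casp11KO-NCD, and 39.4, 29.4 and 53.3 in Casp11KO-HFD. Casp11KO-NCD replicate 2 was only just above the highest HFD value, and the ratios of NCD to HFD means were 3.29 in WT and 3.39 in Casp11KO. The log2 differences of Blk were -1.73 (SE 0.50) and -1.58 (SE 0.44).

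The transcription factors Pax5 and Ebf1 did not move alike in size. Pax5 (chr4:44524748-44710694) was at 260 and 183 in WT-NCD, 83.9, 52.2 and 93.7 in WT-HFD, 253, 141 and 397 in Casp11KO-NCD, and 64.4, 70.7 and 99.6 in Casp11KO-HFD. Its NCD and HFD values did not overlap, with ratios of 2.89 and 3.37 and log2 differences of -1.54 (SE 0.42) and -1.64 (SE 0.38). Ebf1 (chr11:44618100-45008096) was at 54.9 and 27.9 in WT-NCD, 26.8, 29.3 and 28.6 in WT-HFD, 26.3, 35.2 and 81.9 in Casp11KO-NCD, and 24.5, 20.5 and 33.1 in Casp11KO-HFD. WT-NCD replicate 2 and Casp11KO-NCD replicate 1 lay among the HFD values, so the diets overlapped in both genotypes. The ratio of NCD to HFD means of Ebf1 was 1.47 in WT and 1.84 in Casp11KO, and its log2 differences were -0.46 (SE 0.45) and -0.71 (SE 0.40), about 1 to 2 SE. Without the pair of Casp11KO libraries whose Casp4 lay in the WT range, its difference in Casp11KO was -0.09, and the differences of all 9 members in Casp11KO were then -1.77 to -0.09 with a median of -1.23.

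**Figure D1:**
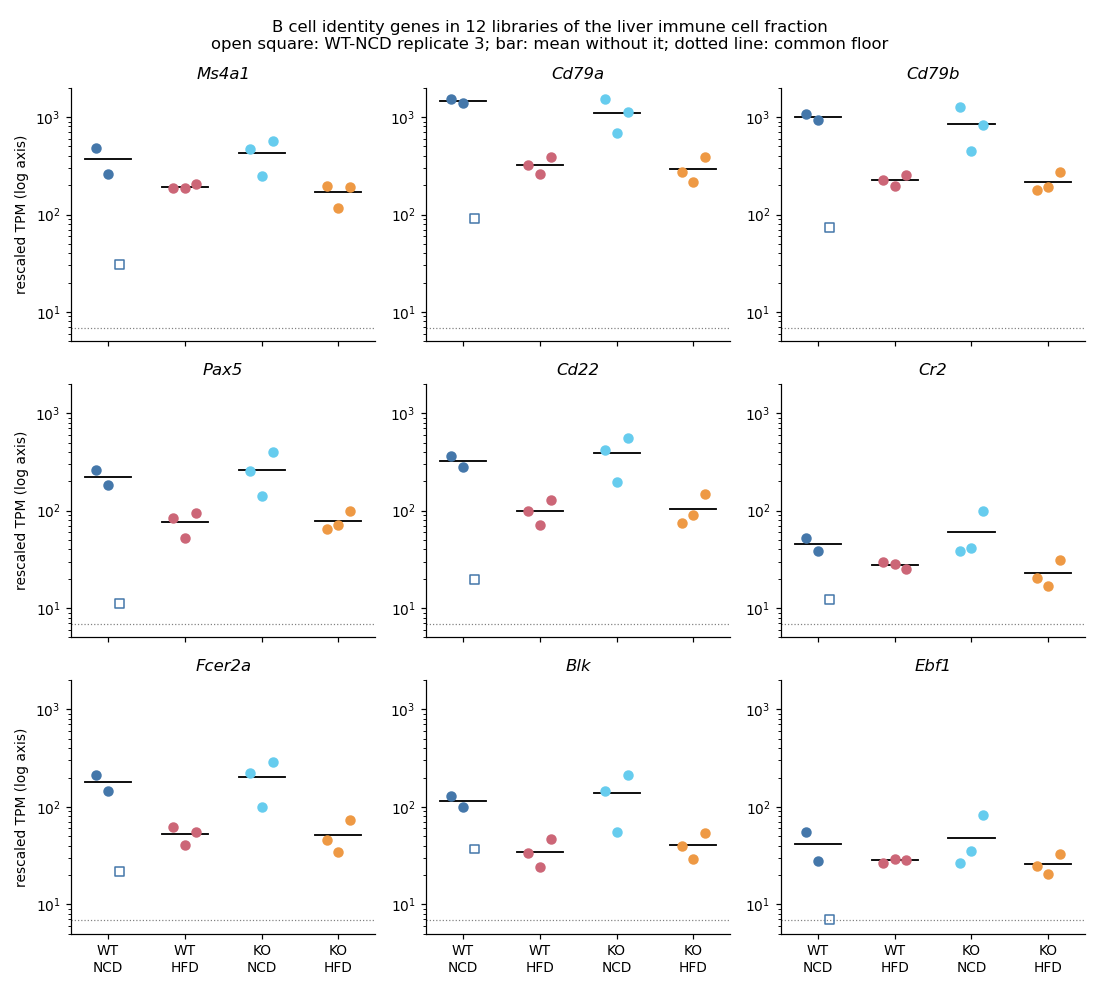
Rescaled TPM (log axis) of each of the 9 genes in the 12 libraries, 1 panel per gene, with 1 point per library, a bar at the mean of the 11 libraries used, an open square for WT-NCD replicate 3 and a dotted line at the common floor of 6.92. In every panel but that of Ebf1 the 6 HFD points lie below the 5 filled NCD points, and the open square lies below all other points in every panel but that of Blk.

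WT-NCD replicate 3 had low values of the members, for example 91.3 for Cd79a, 74.3 for Cd79b, 30.7 for Ms4a1 and 11.1 for Pax5, and Ebf1 was at the common floor. In 8 of 9 members it lay below all other 11 libraries, Blk (36.9) being the exception. With it among the WT-NCD libraries, 0 of 9 members had all WT-HFD values below all WT-NCD values, against 10.2% of all genes tested. The median log2 difference of the members in WT was then -0.38 in place of -1.70, and those of Ms4a1 (0.29) and Ebf1 (0.32) were positive. The description of WT mice on NCD therefore rests on 2 libraries. Casp11KO levels above the common floor do not involve WT-NCD replicate 3. The floor of 6.92 itself, and with it the filter on low values, comes from that library. With all 12 libraries it also enters the Casp11KO diet tests, through the shared spread and the set of genes tested (11451 against 11026).

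Among the NCD libraries, the members also varied from library to library. Casp11KO-NCD replicate 2 was the lowest of the 5 NCD libraries for 7 of 9 members, all but Cr2 and Ebf1, which were lowest in Casp11KO-NCD replicate 1. Casp11KO-NCD replicate 3 was the highest for 7 members, while Cd79a and Cd79b were highest in Casp11KO-NCD replicate 1. These libraries also differed in make-up. Protein-coding genes were 33.9% and 37.8% of the TPM in WT-NCD and 36.7%, 22.3% and 42.4% in Casp11KO-NCD, by replicate number. The 10 hepatocyte markers summed to 72634 and 43781 in WT-NCD and to 18213, 79428 and 17155 in Casp11KO-NCD. The part of this make-up in the member levels was not tested. The sum of the 9 levels was 3355 and 4155 in WT-NCD, 1970 to 4363 in Casp11KO-NCD, 891 to 1229 in WT-HFD and 789 to 1291 in Casp11KO-HFD. The range over mice on NCD was thus wider than on HFD, on the linear scale, in both genotypes for the sum.

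Across the 11 libraries the log2 levels of the members were correlated, with a Pearson r over the 36 pairs between 0.533 (Cd79b and Ebf1) and 0.993 (Pax5 and Cd22) and a median of 0.916. This is a description, since the libraries share the diet groups and the scaling. Ebf1 followed the others least, with r = 0.728 to the mean of the other 8, and Fcer2a most, with r = 0.990. Relative to the geometric mean of the 9 genes in the same library, Ebf1 was the one member whose log2 ratio did not overlap between diets, at a median of -2.26 on NCD and -1.59 on HFD. The level of Ebf1 over that of Pax5 was 0.104 to 0.250 on NCD and 0.290 to 0.561 on HFD. In the same way the level of Cr2 over that of Fcer2a was 0.172 to 0.412 on NCD and 0.428 to 0.703 on HFD. The ratios of Cd79a to Cd79b, Ms4a1 to Cd79a and Pax5 to Cd22 overlapped between the diets. How often such ratios separate the diets among all genes tested was not computed, so nothing is read from them about the members. Ebf1, which is also known from stromal cells and adipocytes, and Cr2 were the members of lowest level in all of the 11 libraries but WT-HFD replicate 2, where Blk was lowest.

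**Figure D2:**
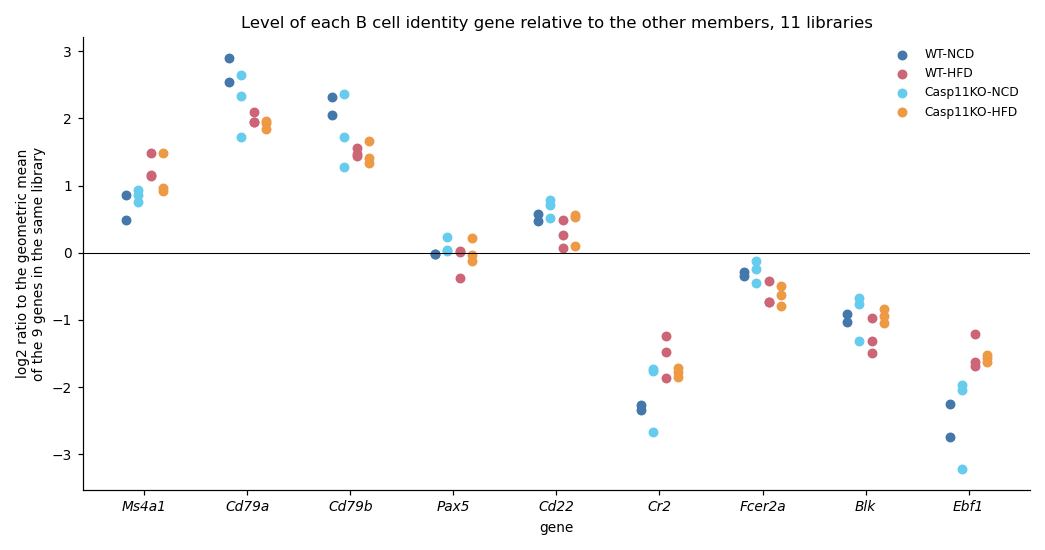
Log2 ratio of the level of each gene to the geometric mean of the 9 genes in the same library (y axis), 1 point per library, for the 11 libraries without WT-NCD replicate 3. The Ebf1 points of the HFD libraries (-1.68 to -1.20) lie above those of the NCD libraries (-3.22 to -1.97), while for the other 8 genes the diets overlap.

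The genotype comparisons did not enter the choice of the members and were tested in the fit over all genes (limma, two-sided, Benjamini-Hochberg adjustment), with the WT and Casp11KO groups also serving in the diet comparisons above. On NCD, 0 of 9 members were called between Casp11KO and WT, with an adjusted p of 1 for each, against 0.00907% of all genes tested. The differences ran from -0.46 (SE 0.39) for Cd79a to 0.27 (SE 0.42) for Cr2 on the log2 scale, and 7 of the 9 were positive, with a median of 0.11. With all 12 libraries, the differences on NCD were positive for all 9 members, from 0.61 for Blk to 1.54 for Pax5 with a median of 0.89, and 0 were called (lowest adjusted p = 0.616 in limma), so their size and the direction of Cd79a and Cd79b turn on WT-NCD replicate 3. On HFD, 0 of 9 were called, again with an adjusted p of 1 for each and against 0.0% of all genes tested (0 genes, with 327 at an unadjusted p under 0.05). The differences on HFD ran from -0.32 (SE 0.37) for Cr2 to 0.24 (SE 0.44) for Blk. For all 9 members the values of the 2 genotypes overlapped on both diets, while among all genes tested 2.29% were lower and 9.73% higher without overlap in Casp11KO on NCD, and 7.54% and 2.02% on HFD.

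The interaction of diet and genotype, which asks whether the diets differed by another amount in Casp11KO than in WT, called 0 of 9 members, against 0.0% of all genes tested (0 genes, with 481 at an unadjusted p under 0.05). The interaction was -0.59 (SE 0.56, adjusted p = 0.925 in limma) for Cr2, -0.42 (SE 0.54, adjusted p = 0.937) for Ms4a1 and 0.30 (SE 0.53, adjusted p = 0.950) for Cd79a, and the other members lay between these, 3 of the 9 being positive. With all 12 libraries, the interaction was negative for all 9, from -1.58 for Ms4a1 to -0.38 for Blk with a median of -1.15, and 0 were called (lowest adjusted p = 0.791 in limma). With standard errors of 0.53 to 0.67 on the log2 scale without WT-NCD replicate 3, a difference between genotypes of the size of 1 log2 unit could not be resolved, so these values do not show that the genotypes were alike. In all 552 values of genotype and interaction under other settings, 0 were called and the lowest adjusted p was 0.416, and 92 had the opposite sign.

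A further 25 genes of B cells that are not immunoglobulins were followed beside the members. This list and the lists of other cells below were also chosen with earlier results of these data known. Their calls in the diet comparisons are therefore a description and give no independent support. In WT mice, 3 of 25 fell on HFD and 0 rose at an adjusted p under 0.05 (limma), against 0.426% of all genes tested that fell. They were Pou2af1, a coactivator of octamer factors (log2 difference -2.31, SE 0.34, adjusted p = 0.0144), Vpreb3 (-2.44, SE 0.41, adjusted p = 0.0339), and Fcmr, the Fc receptor for IgM (-2.25, SE 0.42, adjusted p = 0.0370). At an unadjusted p under 0.05, 15 of 25 were lower and 0 higher, and the median difference of the list was -1.10 against 0.02 for all genes tested.

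In Casp11KO mice, 12 of 25 fell on HFD and 0 rose, against 1.06% of all genes tested that fell, and the median of the list was -1.41 against -0.25 for all genes tested. The smallest p-values belonged to Pou2af1 (-1.93, SE 0.31, adjusted p = 0.0175 in limma), Vpreb3 (-1.96, SE 0.37, adjusted p = 0.0271), Tnfrsf13c, the BAFF receptor (-1.86, SE 0.39, adjusted p = 0.0319), Cxcr5, the homing receptor for follicles (-1.96, SE 0.42, adjusted p = 0.0326), and Fcmr (-1.72, SE 0.37, adjusted p = 0.0332). Siglecg, Spib, Ly6d, Fcrla, Blnk and Bcl11a were also among the genes called. Pou2af1 was at 796 and 751 in WT-NCD, 154, 144 and 166 in WT-HFD, 818, 338 and 591 in Casp11KO-NCD, and 141, 142 and 146 in Casp11KO-HFD, so its 6 HFD values lay within a narrow range well below the NCD values.

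These counts depended on single libraries. Among the settings that leave out 1 library, the 3 genes called in WT became 0 without either WT-NCD library, without WT-HFD replicate 1 or without WT-HFD replicate 2, 2 without WT-HFD replicate 3, and 9 without Casp11KO-NCD replicate 2. The 12 called in Casp11KO became 0 without Casp11KO-NCD replicate 1 or Casp11KO-HFD replicate 3, 1 without Casp11KO-NCD replicate 3, 2 without Casp11KO-HFD replicate 1 or replicate 2, 4 to 7 without any one of the 5 WT libraries, and 22 without Casp11KO-NCD replicate 2. With all 12 libraries, 1 gene (Vpreb3) was called in WT and 0 in Casp11KO (13 lower at an unadjusted p under 0.05 in limma). Of the 25 differences, 22 were negative in WT and 24 in Casp11KO, while with all 12 libraries 17 were negative and 8 positive in WT, with a median of -0.33, and 24 were negative in Casp11KO. Rasgrp3, an exchange factor for Ras that is also known from endothelial cells, was positive in both genotypes (0.38 and 0.62, neither called). For 20 of 25 genes in WT, 20 in Casp11KO and 15 over both genotypes, all HFD values were below all NCD values. Among all genes tested the shares were 21.9%, 15.5% and 4.69%. When WT-NCD replicate 3 was included it held for 3 of 25 in WT, against 10.2% of all genes tested, and nothing is read from that count.

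**Figure D3:**
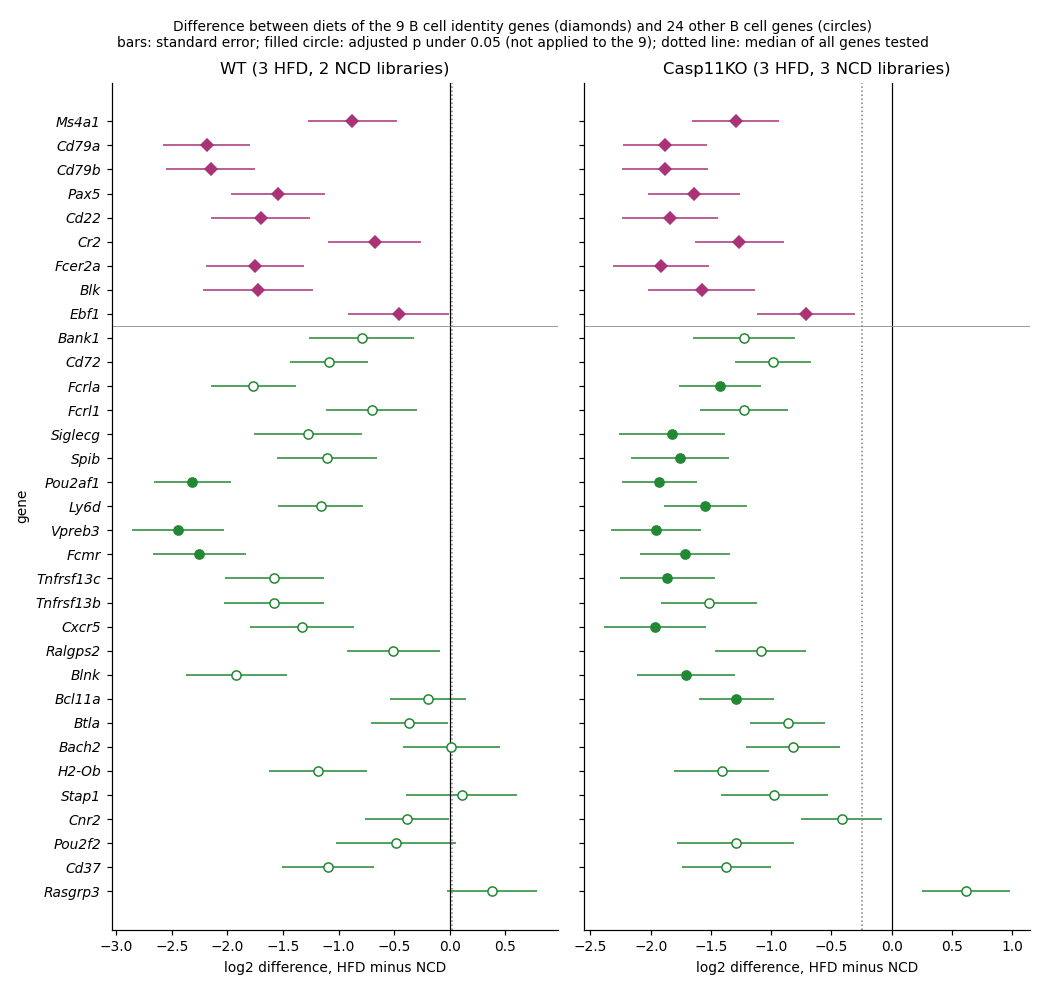
HFD minus NCD difference of log2(rescaled TPM + 1) (x axis) with its standard error for the 9 members (diamonds) and 24 of the 25 other B cell genes (circles), in WT (left) and Casp11KO (right), with filled circles for genes of the second list at an adjusted p under 0.05 and a dotted line at the median of all genes tested. All 9 diamonds lie below 0 in both panels, Ebf1 nearest to it, and 3 circles are filled in WT and 11 in Casp11KO.

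The protein-coding genes whose log2 levels most resembled the mean profile of the members over the 11 libraries included Srpk3 (r = 0.989), Cacna1i, Chst3, Ikzf3, H2-Ob, Aff3, Siglecg, Trim7 and Myo1e (r = 0.975), among 11017 genes compared. Srpk3, a protein kinase, was at 33.7 and 22.9 in WT-NCD, 8.01, 7.20 and 10.1 in WT-HFD, 35.0, 16.6 and 65.4 in Casp11KO-NCD, and 7.42, 6.92 (the common floor) and 14.3 in Casp11KO-HFD. As for Pax5 and Cd22, its highest value was in Casp11KO-NCD replicate 3. Of the 25 other B cell genes, 9 were among the 100 genes of highest r, and their median r was 0.916 against 0.340 for all genes compared. The 9 members share their diet groups with every gene compared, so these r values are a description of the libraries.

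Markers of other cells moved with diet as well, and their part in the differences of the members was not tested. Of 12 Kupffer cell markers, 9 rose on HFD in WT and 9 in Casp11KO, with list medians of 3.07 and 2.64 on the log2 scale, against 0.562% and 2.54% of all genes tested that rose. When WT-NCD replicate 3 was included, 4 were called in WT (Cd5l, Clec4f, Vsig4 and C1qb) and 3 in Casp11KO (Cd5l, Clec4f and Vsig4), all higher. Their summed level was 326 to 394 in WT-NCD, 1955 to 3866 in WT-HFD, 307 to 906 in Casp11KO-NCD and 1513 to 2302 in Casp11KO-HFD. Marco was at the common floor in the 5 NCD libraries and at 13.2, 19.9 and 34.5 in WT-HFD. In Casp11KO-HFD it was at 8.87 in replicate 1 and at the floor in replicates 2 and 3. Cd5l, a secreted protein of macrophages, had a difference of 5.10 (SE 0.38, adjusted p = 9.32e-05 in limma) in WT and 3.88 (SE 0.34, adjusted p = 0.000605) in Casp11KO. The geometric mean of the members was 7.15 to 13.4 times that of the Kupffer cell markers on NCD and 0.405 to 0.828 times on HFD. All protein-coding genes share a fixed total here, so a higher level of some genes lowers the others.

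Of 14 T cell markers, 0 were called in WT (limma, with 1 lower at an unadjusted p under 0.05) and 1 (Cd2) fell in Casp11KO, with medians of -0.48 and -0.80 and summed levels of 1433 to 1475 in WT-NCD, 791 to 1336 in WT-HFD, 782 to 2322 in Casp11KO-NCD and 553 to 683 in Casp11KO-HFD. Over all 12 libraries, limma called 0 T cell markers and 0 NK cell markers in either genotype, with at most 2 of a list lower at an unadjusted p under 0.05. In WT the T cell list then had 8 negative and 6 positive differences, in place of 10 and 4. Of 7 NK cell markers, 1 (Prf1) fell in WT and 0 were called in Casp11KO (5 lower at an unadjusted p under 0.05), with medians of -0.87 and -0.72. The geometric mean of the members was 2.03 to 8.61 times that of the T cell markers on NCD and 1.14 to 2.64 times on HFD, and 1.14 to 5.41 and 1.21 to 1.94 times that of the NK cell markers. Against these lymphocyte lists, the ranges of the 2 diets over both genotypes together therefore overlapped. In WT alone, the ratio to the T cell markers was 3.53 and 2.38 on NCD and 1.61, 1.45 and 1.14 on HFD, without overlap. In Casp11KO this ratio overlapped, and the ratio to the NK cell markers overlapped in each genotype.

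Plasma cell markers were lower on HFD too. Of 8 such genes, 5 fell in WT (Mzb1, Derl3, Tnfrsf17, Txndc5 and Prdm1) and 4 in Casp11KO (Mzb1, Derl3, Irf4 and Jchain), with medians of -2.61 and -1.68 and summed levels of 8106 to 9973 in WT-NCD, 849 to 1224 in WT-HFD, 1266 to 8560 in Casp11KO-NCD and 494 to 888 in Casp11KO-HFD. The shares of all genes tested that fell are the 0.426% and 1.06% given above. When WT-NCD replicate 3 was included, 1 plasma cell marker was called in WT (Tnfrsf17), where the median was -1.33, and 0 in Casp11KO (4 lower at an unadjusted p under 0.05 in limma). Mzb1, a chaperone for antibody assembly, was at 442 and 394 in WT-NCD, 19.4, 20.7 and 32.1 in WT-HFD, 361, 71.7 and 52.1 in Casp11KO-NCD, and 27.7, 16.4 and 20.5 in Casp11KO-HFD. Casp11KO-NCD replicate 3, the library with the highest level of 7 members, thus had the lowest Mzb1 of the NCD libraries. The geometric mean of the members over that of the plasma cell markers was 0.531 to 4.77 on NCD and 1.502 to 3.12 on HFD, so the members did not keep one proportion to the plasma cell genes between mice.

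**Figure D4:**
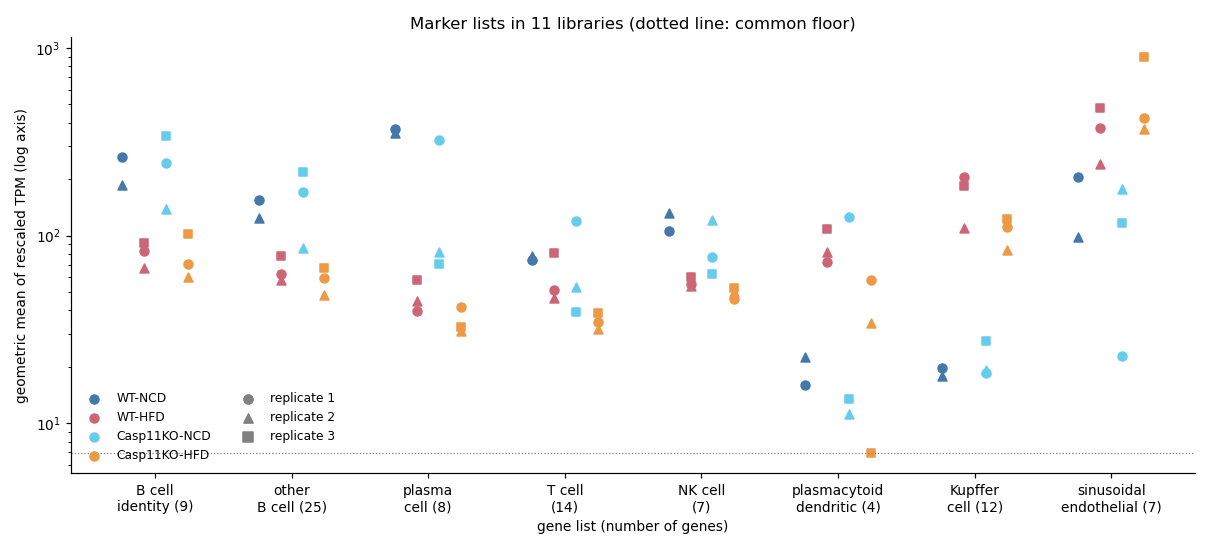
Geometric mean of the rescaled TPM (log axis) of 8 gene lists, 1 point per library with the colour giving the group and the shape the replicate number, for the 11 libraries without WT-NCD replicate 3, and a dotted line at the common floor. The points of the B cell, plasma cell and NK cell lists lie lower on HFD than on NCD. Those of the Kupffer cell and sinusoidal endothelial lists lie higher, while the T cell and plasmacytoid dendritic cell points of the diets overlap.

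Among 7 ligands that sustain or attract B cells, 4 passed the filter and 1 was called. Cxcl13, the chemokine bound by CXCR5, rose on HFD in WT (2.79, SE 0.33, adjusted p = 0.00350 in limma) and in Casp11KO (1.27, SE 0.29, adjusted p = 0.0387). It was at the common floor in WT-NCD replicates 1 and 2 and in Casp11KO-NCD replicates 1 and 3, at 9.20 in Casp11KO-NCD replicate 2, at 63.2, 35.3 and 69.4 in WT-HFD, and at 19.9, 16.9 and 22.8 in Casp11KO-HFD. WT-NCD replicate 3 had Cxcl13 at 78.7, above every HFD library, and with all 12 libraries 0 ligands were called in either genotype, the difference of Cxcl13 being 1.68 (adjusted p = 0.245 in limma, 0.0271 unadjusted) in WT and 1.27 (adjusted p = 0.462, 0.0835 unadjusted) in Casp11KO. The fitted size of its difference depends on the floor, and the interaction of diet and genotype was not called (adjusted p = 0.924). Of 17 receptor signalling genes that B cells share with myeloid cells, 0 were called in WT (limma, with 2 lower at an unadjusted p under 0.05), while in Casp11KO Lat2 fell (-1.27, SE 0.32) and Fcgr2b, an inhibitory Fc receptor also made by macrophages and endothelial cells, rose (1.84, SE 0.45). Over all 12 libraries, 0 of these 17 were called in either genotype, and in WT the median went from -0.66 to 0.32, with 11 positive against 2 (1 higher in each genotype, and 1 lower in WT and 3 in Casp11KO, at an unadjusted p under 0.05 in limma). The B cell progenitor markers Rag1, Rag2, Vpreb1 and Igll1 were at the common floor in all 11 libraries, and Dntt was at 17.0 or less.

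In the remaining lists, 5 of 7 sinusoidal endothelial markers rose on HFD in Casp11KO (Lyve1, Dnase1l3, Clec4g, Oit3 and Kdr, median of the list 2.73), while 0 were called in WT (1 higher at an unadjusted p under 0.05, median 1.27). The share of all genes tested that rose in Casp11KO was 2.54%. Over all 12 libraries, limma called 0 in either genotype, with 7 higher in Casp11KO and 6 in WT at an unadjusted p under 0.05 and a WT median of 2.29, and the difference between genotypes was not called for any of them. Of 8 stellate cell markers, 5 passed the filter and 1 (Dcn) rose in Casp11KO, while 0 were called in WT (2 higher and 1 lower at an unadjusted p under 0.05), and with all 12 libraries limma called 0 in Casp11KO too (2 higher at an unadjusted p under 0.05), while the WT median went from 0.36 to -0.06. Of 4 plasmacytoid dendritic cell, 7 neutrophil and 10 hepatocyte markers, limma called 0 in either genotype, with 2 of the first list higher in WT and 6 of the last higher in Casp11KO at an unadjusted p under 0.05. With all 12 libraries, 0 hepatocyte markers were called, and in WT 10 differences were positive (median 1.84) in place of 6 (median 0.04). Casp11KO-HFD replicate 2, of the pair whose genotype rests on labels, stood apart in the neutrophil markers, with a summed level of 17268 against 530 and 954 in the other libraries of its group, 1118 to 2733 in the other groups and 925 in WT-NCD replicate 3. S100a8, a calcium-binding protein of neutrophils, was at 10110 in that library against 320 and 562 in its group, and Retnlg at 4527 against 124 and 166. The part of these cells in the member levels of that library was not tested. Cd79a was at 218 there against 276 and 389 in its group, and Cd22 at 89.5 against 75.2 and 147.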

How the data were processed

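The RNA-seq libraries of 12 mice were random-primed and stranded. Single-end reads were mapped by the authors to mm10 (STAR), and Qlucore Omics Explorer gave TPM. The deposited score values are this TPM, raised to a floor of 1.01 in every file, and no read counts accompany them. Read depth is therefore unknown, and error is the spread between mice.

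RefSeq gene types for GRCm38.p6 were matched by symbol to 39350 of 40840 genes. Protein-coding genes (21702) made up 14.5% of the TPM in WT-NCD replicate 3 and 15.7% to 42.4% in the other 11 libraries. In WT the share was 33.9% and 37.8% on NCD and 24.5%, 15.7% and 25.2% on HFD, without overlap. In Casp11KO it was 36.7%, 22.3% and 42.4% on NCD and 19.3%, 23.4% and 22.9% on HFD, which overlap. The part of this share in the differences between diets was not tested. Protein-coding genes were rescaled to a total of 1000000 per library and raised to 6.92, the highest floor after rescaling, that of WT-NCD replicate 3. Genes above it in at least 3 of 11 libraries were compared on log2(value + 1) with limma 3.58.1 (trend, R 4.3.3) in a model of the 4 group means. Tests were two-sided, and genes were called at an adjusted p under 0.05 (Benjamini-Hochberg). The diet comparisons contain different mice, while each genotype comparison shares its groups with them. The fit was tested on simulated data.

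The members and the gene lists were chosen with earlier results of these data known. Genes named are the members, up to 5 other B cell genes and up to 3 genes of each other list of smallest p in each direction, the 10 genes most like the members, and Casp4. Further genes are named to complete a count or as defining markers and were chosen after their values were seen. Alternatives changed the libraries, scaling, floor, pseudocount (10), filter, spread and block. The rescaling without the 1% of highest mean and the fit without the pair of libraries whose Casp4 lay in the WT range were added after seeing the data. Other steps used Python 3.11.15, pandas 2.3.3, numpy 2.4.6 and matplotlib 3.10.9. The search of protein motifs was not run, and 1 gene of the list of other B cell genes is counted but not reported here by name.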

Additional observations from a re-analysis of the deposited data

How the results depend on the processing

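Calls of genes depended on the processing and on the libraries that entered, and the cause was not tested. In WT, 109 genes were called between diets (62 higher, 47 lower), and the count was 12 with all 12 libraries, 19 with no filter, 249 (109 higher, 140 lower) with median centring, 552 with the spread of the 2 groups alone, 210 (94 and 116) without the 1% of genes of highest mean and 194 without the pair of libraries with Casp4 in the WT range. Deposited TPM without rescaling gave 95 (9 higher, 86 lower). In Casp11KO, 397 (280 higher, 117 lower) became 10 with all 12 libraries, 3 without rescaling, 691 with centring, 93 with no filter, 9 with the spread of 2 groups, 632 (343 and 289) without the 1% of highest mean and 240 (221 and 19) without the pair of libraries. The 1 gene called between genotypes on NCD became 0 without rescaling, with own floors, with the spread of 2 groups and without the pair of libraries. Of the other B cell genes, the 3 called in WT became 1 with all 12 libraries or no filter, 6 with centring, 10 with the spread of 2 groups and 5 without the 1% of highest mean, and the 12 called in Casp11KO became 0 with all 12 libraries, without rescaling or with the spread of 2 groups, and 1 with no filter or without the pair of libraries.

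Leaving out 1 library at a time gave 2 to 341 calls between diets in WT and 2 to 2794 in Casp11KO, 0 to 15 between genotypes on NCD, 0 to 2 on HFD and 0 to 18 for the interaction, with 0 to 9 and 0 to 22 of the other B cell genes in WT and Casp11KO. The highest of these counts came without Casp11KO-NCD replicate 2, except that on HFD, which came without Casp11KO-HFD replicate 1. The lowest between diets came without WT-NCD replicate 2 in WT and without Casp11KO-HFD replicate 3 in Casp11KO.

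The main fit did not pair libraries by replicate number, and the values here cannot decide whether the numbers mark pairs. Deviations within so small a group cancel out, which ties the r values to each other. Deviations from the group means had r of -0.365 to 0.420 (median 0.0537) over 15 pairs of the same number and a median of -0.0529 over 30 pairs of different numbers. With the number as a block, 176 genes (87 higher, 89 lower) were called in WT, 881 (448 and 433) in Casp11KO, 0 between genotypes on NCD, and 7 of the other B cell genes in WT.

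Differences of the members between diets turned positive in 3 cases, Ms4a1 (0.29) and Ebf1 (0.32) in WT with all 12 libraries, and Ebf1 in WT without WT-NCD replicate 1 (0.0166, with -0.94 without WT-NCD replicate 2). Of the other values, 197 with 1 library left out and 153 under other settings kept their sign and moved by less than the spread between mice, and 21 moved further with the same sign. Without rescaling, the medians of the members were -2.34 in WT and -2.17 in Casp11KO. Removal of the 1% of highest mean also removed Cd79a and Cd79b.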
